A study of Sus scrofa with 4 samples.

Results

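Solute carriers are the membrane proteins, numbered by family, that move sugars, amino acids, fatty acids, nucleotides, metals and ions across the plasma membrane and the membranes of organelles. The genes described are all those whose symbol in the array annotation begins with SLC and a family number, leaving out SLC25A20. They were 220 of the 9962 genes that had a probe naming that gene alone and a value on every array, and they fell into 39 families. The brightest probe stood for a gene. Of the 220 symbols, 4 are named after a carrier without being one (SLC4A1AP, SLC7A6OS, SLC9A3R1 and SLC9A3R2), which leaves 216.

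RNA came from porcine granulosa cell (GC) monolayers that had been cocultured with cumulus-oocyte complexes (COCs) during in vitro maturation. The NEFA group received non-esterified palmitic, stearic and oleic acid. The control group received the albumin and ethanol vehicle alone, and both media held EGF and porcine follicular fluid throughout, with FSH, LH and dbcAMP in the first part of the maturation alone. The cells came from slaughterhouse ovaries of pigs whose breed and age are not given in the sources used here, the COCs came from other ovaries, and each RNA pooled the wells of 1 plate after removal of the COCs. There were 4 replicates, collected on different days, and each was hybridised to 1 dual-dye EmbryoGENE array (A to D for replicates 1 to 4) that held its NEFA RNA and its control RNA. The comparison asks which transporter transcripts differ in GCs exposed to NEFAs. In such bulk RNA, fewer cells of a type and less RNA per cell cannot be told apart.

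A pair of points on direction applies to every value. The dye fields of the sample records put NEFA RNA in Cy3 on arrays A and B and in Cy5 on arrays C and D, whereas the sample titles give the opposite dyes on all 4 arrays. The dye fields, which describe each channel, are followed here, so a positive log2 ratio means higher in NEFA by those fields. The records do not settle this, and by the titles every sign would turn. Array A also ran against the other arrays. The red to green ratios of 59 control probes correlated at -0.99, -0.97 and -0.98 between A and B, C and D, but at 0.94 to 0.99 among B, C and D. The median local background was 117 in green and 63.1 in red on array A, against 60.9 to 75 in green and 116 to 173 in red on the others. Over all probes, the red to green ratios of array A correlated at -0.74, -0.32 and -0.30 with those of B, C and D, and those of B, C and D at 0.32 to 0.47 with each other. As ratios of NEFA to control by the dye fields, A correlated at 0.32 and 0.30 with C and D and at -0.74 with B, B at -0.41 and -0.32 with C and D, and C at 0.47 with D. ANGPTL4, a lipase inhibitor whose transcript fatty acids are known to raise, had log2 ratios of -2.72 on array A and 3.04, 3.03 and 3.47 on arrays B, C and D. PLIN2, a lipid droplet coat protein, had -1.76 on array A and 1.51, 1.18 and 1.38 on the others. No record says that the channels of array A were exchanged, so each result is given with the channels as headed in the files and again with those of array A exchanged.

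Granulosa cells line the antral follicle and draw glucose, amino acids and lipids from follicular fluid and the culture medium, and they pass metabolites to the oocyte. SLC27 proteins bring long-chain fatty acids into cells and activate them, and SLC2 proteins carry glucose and related sugars. Most SLC25 proteins link the cytosol with the mitochondrial matrix, where fatty acids are oxidised. Amino acids are carried by several families, and SLC35 proteins load the Golgi with nucleotide sugars.

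Few SLC probes were bright. The threshold for a channel was 2 SD over the mean of its 153 negative control spots, and a gene counted as above background where the raw intensity of its probe passed it in every NEFA channel or in every control channel. This held for 31 SLC genes, or 14.1%, against 29.2% of all genes. Of the 220, 26 were above background in all 8 channels and 114 in none. The SLC25 family was the best detected of the larger groups, with 11 of 29 above background. The counts were 5 of 27 for nucleosides and nucleotide sugars, 4 of 20 for glucose and other sugars, 3 of 37 for amino acids, 3 of 36 for inorganic ions and pH, and 2 of 19 for metal ions. None of the 4 SLC27 genes, of the 15 monocarboxylate and dicarboxylate carriers, of the 20 carriers of organic ions, bile acids and peptides, or of the 3 vitamin and haem carriers passed. The probe for SLC2A1, the common glucose transporter, and any for the SLC3 chaperones of amino acid exchange are not among those named in the annotation used here.

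**Figure D1:**
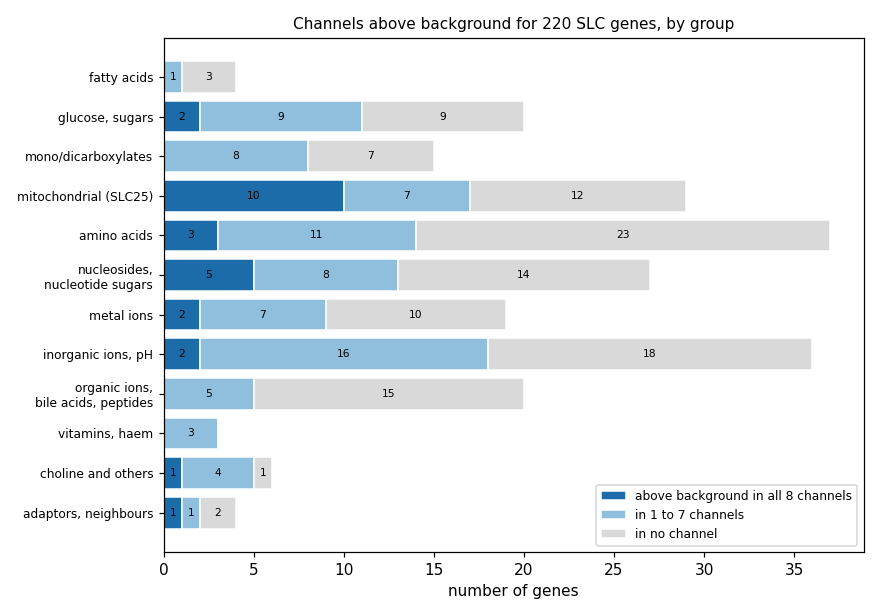
Number of SLC genes (x axis) in each transporter group (y axis) whose probe was above background in all 8 channels, in 1 to 7, or in none. The SLC25 row holds the most genes above background in all channels (10 of 29), and 114 of the 220 genes were above background in no channel.

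The granulosa label was checked against markers. Of 15 granulosa markers listed, only 7 were measured. Of these, 4 were above background (AMH and FST in all 8 channels, NR5A1 and NR5A2 in 6), and LHCGR, INHBA and SERPINE2 were above it in no channel. Of the markers of other cells, GDF9 (1 of 7 oocyte genes) and DCN (1 of 3 stromal genes) were above background, and 0 of 2 theca, 0 of 3 immune and 0 of 2 endothelial genes were. The other stromal genes, PDGFRA and COL1A1, passed the threshold in 6 and 3 of 8 channels, but not in every NEFA or every control channel. GDF9 had a log2 ratio of 0.15 as headed and -0.15 with array A exchanged, and DCN of -0.10 and -0.09. Their part in the results below was not tested.

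The criterion was that of the study, an unadjusted p under 0.05 and at least a 1.2-fold change, in a limma fit over all 43794 probes. With channels as headed, 0 SLC genes were higher in NEFA and 3 were lower, against 0.281% and 0.522% of all genes. At an unadjusted p under 0.05 without the fold limit, limma gave 0 higher and 6 lower SLC genes, against 0.492% and 0.934% of all genes. Under the exchange of array A, 2 SLC genes were higher and 6 were lower, against 1.08% and 3.08% of all genes. With that exchange and a term for the dye, 5 were higher and 6 lower, against 3.00% and 3.71%, and without replicate 1 the counts were 1 and 5, against 0.733% and 2.39%. Without the fold limit the counts were 2 higher and 7 lower under the exchange, against 1.38% and 4.49%, and 10 and 13 with the dye term, against 5.55% and 8.72%. The share of SLC genes lower at the criterion was 1.36% as headed, above that of all genes, and 2.73% under the exchange, below it. Among genes above background, 0 of 31 SLC genes were higher and 1 was lower as headed, against 0.343% and 0.893% of all such genes, and 1 and 5 under the exchange, against 2.30% and 9.47%. After Benjamini-Hochberg adjustment over all probes, limma called no SLC gene as headed or under the exchange (smallest adjusted p = 1 and 0.635). It called 4 under the exchange with the dye term, against 1.44% of all genes. The median log2 ratio of the SLC genes was -0.03 as headed and -0.01 exchanged, and that of all genes was -0.02 and -0.01. As headed, 20 SLC genes had the same sign on all 4 arrays, against 7.67% of all genes, and 19 had it with array A exchanged, against 13.0%.

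Of the 29 genes of the SLC25 family, 0 were higher and 1 lower as headed, and 0 were higher and 2 lower under the exchange. Over all genes the shares were 0.281% higher and 0.522% lower as headed, and 1.08% and 3.08% under the exchange. SLC25A33, which carries pyrimidine nucleotides into mitochondria, had normalised log2 intensities of 10.63, 10.63, 10.1 and 11.18 in the NEFA channel of arrays A to D, against 10.39, 10.83, 10.64 and 11.9 in the control channel. NEFA was thus lower on arrays B, C and D and higher on array A as headed. The log2 ratio was -0.31 as headed (SE 0.16, unadjusted p = 0.107 by limma) and -0.43 with array A exchanged (unadjusted p = 0.00831). With the dye term its adjusted p was 0.0366 by limma.

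SLC25A12, the aspartate-glutamate carrier of the malate-aspartate shuttle, read 12.57, 11.57, 11.67 and 12.06 in the NEFA channels and 12.07, 11.96, 12.09 and 12.32 in the control channels. Its ratio was 0.49 on array A as headed and -0.39, -0.42 and -0.25 on arrays B, C and D. The fit gave -0.14 as headed (unadjusted p = 0.425 by limma) and -0.39 with array A exchanged (unadjusted p = 0.00255). Its partner isoform SLC25A13 had -0.03 and -0.10 in these readings and did not pass in either.

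SLC25A21 carries dicarboxylates formed in lysine and tryptophan breakdown. It was 1 of the 3 genes called with channels as headed, with ratios of -0.28, -0.30, -0.38 and -0.52 on arrays A to D, lower in NEFA on every array. The log2 ratio was -0.37 (SE 0.08, unadjusted p = 0.00386 by limma), and -0.23 with array A exchanged (unadjusted p = 0.152). The probe was dim, above background in 4 of 8 channels, and the gene's other probe gave -0.17 as headed.

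Of the other SLC25 genes above background none passed in either reading over all 4 arrays. The citrate carrier SLC25A1, which supplies cytosolic citrate for fatty acid synthesis, had -0.37, 0.22, -0.61 and -0.60 (-0.34 as headed, unadjusted p = 0.0657 by limma, and -0.16 exchanged). Its other probes, which were dimmer, gave 0.05 and -0.18 as headed. The ADP/ATP carriers SLC25A4 and SLC25A5 had 0.10 and 0.00 as headed and 0.08 and -0.06 exchanged. The phosphate carrier SLC25A3 had -0.13 in both readings and the oxoglutarate carrier SLC25A11 had 0.05 and -0.01. SLC25A31, the ADP/ATP carrier best known from the male germ line, had 0.40 as headed and 0.14 exchanged. Its ratios of 0.52, -0.57, 0.84 and 0.80 did not keep one sign. Over the 29 SLC25 genes the median was -0.01 as headed and -0.02 exchanged.

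**Figure D2:**
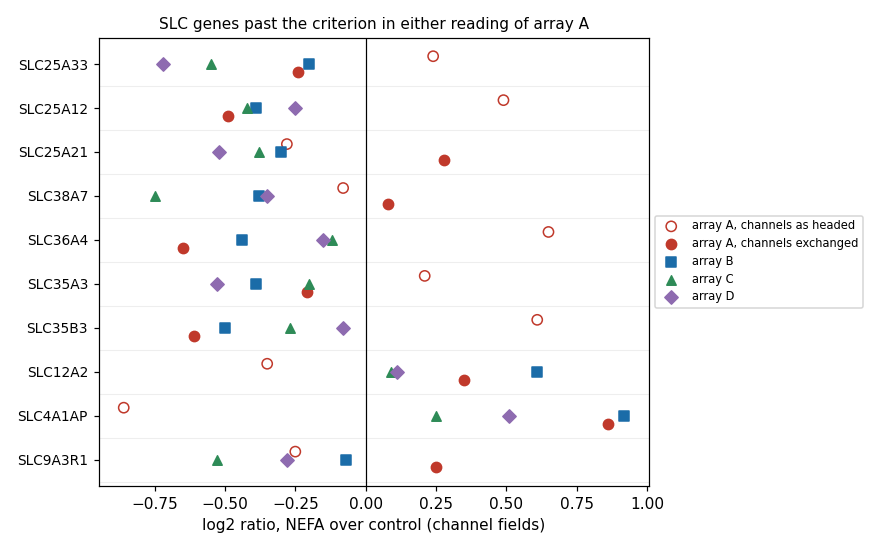
Log2 ratio of NEFA over control (x axis) on each array for the 10 SLC genes past the criterion in either reading (y axis). Open red circles give array A as headed and filled red circles give it exchanged. SLC25A12, SLC25A33, SLC35A3, SLC35B3 and SLC36A4 lie below 0 on arrays B, C and D and above 0 on array A as headed.

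Amino acid carriers numbered 37, with 0 higher and 1 lower as headed and 0 higher and 2 lower under the exchange. All genes gave 0.281% higher and 0.522% lower as headed, and 1.08% and 3.08% under the exchange. SLC36A4, a carrier of proline and tryptophan, was above background in all 8 channels and read 10.45, 10.04, 10.21 and 10.44 in NEFA, against 9.8, 10.48, 10.33 and 10.59 in the control. Its log2 ratio was -0.01 as headed and -0.34 exchanged (unadjusted p = 0.0231 by limma). The ratios were 0.65 on array A as headed, -0.44 on B, -0.12 on C and -0.15 on D.

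SLC38A7, the lysosomal glutamine exporter, was called in both readings but its probe was not above background in any channel. Its ratios were -0.08, -0.38, -0.75 and -0.35 on arrays A to D, and the fit gave -0.39 as headed (SE 0.12, unadjusted p = 0.017 by limma) and -0.35 exchanged (unadjusted p = 0.0422). Both values come from signal at background level, and they depend on how the background is handled. The as-headed value was -0.92 with plain subtraction and 0.03 with no correction. SLC36A3 had -0.12, -0.31, -0.34 and -0.09, which gave -0.21 as headed (unadjusted p = 0.0458 by limma), short of the fold limit, and -0.15 exchanged. The betaine carrier SLC6A12 had -0.21 and -0.15. Neither was above background in any channel. SLC1A5, the plasma membrane glutamine carrier, had the highest log2 ratio of all 220 genes as headed, 0.58 (unadjusted p = 0.131 by limma), and -0.20 exchanged. Its ratios were 1.56 on array A, -0.70 on B, 0.70 on C and 0.77 on D, and its mean red over green log2 ratio, with array A exchanged, was 0.93. Under the exchange its red channel was the brighter on all 4 arrays, and the ratio of NEFA to control did not keep one sign in either reading.

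The 27 nucleoside and nucleotide sugar carriers held 2 genes lower under the exchange, against 3.08% of all genes, and none called as headed. SLC35A3 brings UDP-N-acetylglucosamine into the Golgi. It read 9.38, 9.05, 8.92 and 8.87 in NEFA and 9.17, 9.44, 9.13 and 9.39 in the control, which gave -0.23 as headed (unadjusted p = 0.136 by limma) and -0.33 exchanged (unadjusted p = 0.00924). SLC35B3, a Golgi carrier of the sulphate donor PAPS, had ratios of 0.61, -0.50, -0.27 and -0.08 (-0.06 as headed, and -0.36 exchanged with an unadjusted p = 0.0145 by limma). Both were above background in all 8 channels. SLC35B4, another Golgi carrier of nucleotide sugars, had -0.40, -0.08, -0.27 and -0.25 on arrays A to D, which gave -0.25 as headed (unadjusted p = 0.0261 by limma), short of the fold limit, and -0.05 exchanged. SLC35A4 had -0.16 and 0.05, and neither was above background in any channel. The 20 SLC35 genes had a median of -0.03 as headed and -0.01 exchanged, so most of the family lay near 0.

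**Figure D3:**
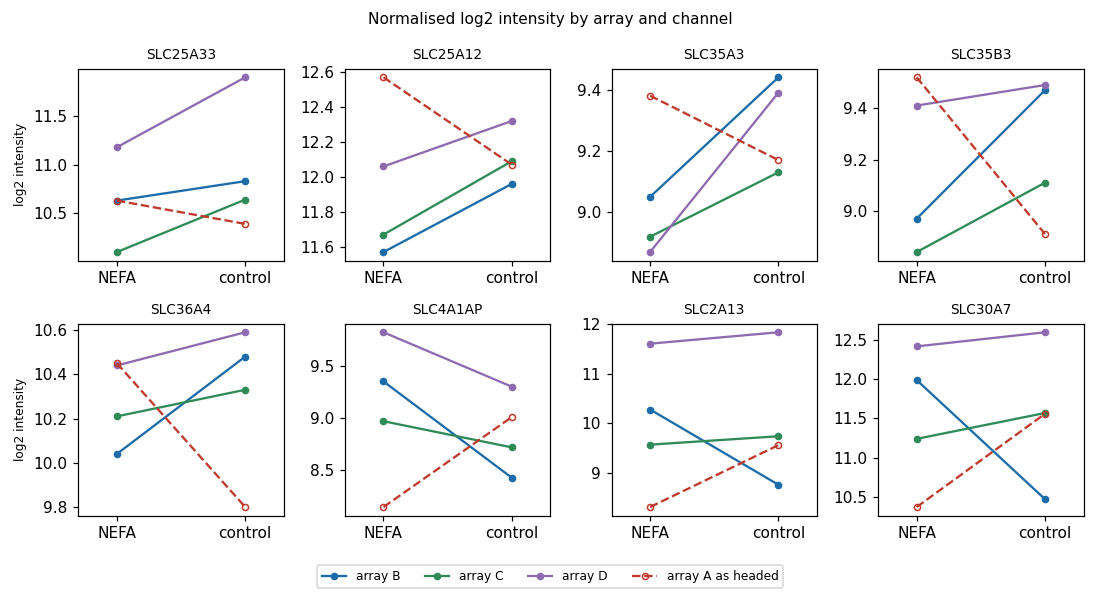
Normalised log2 intensity (y axis) in the NEFA and the control channel (x axis) of each array for 8 SLC genes, with lines joining the channels of 1 array and array A dashed, as headed. For SLC25A33, SLC25A12, SLC35A3, SLC35B3 and SLC36A4 the lines of arrays B, C and D are lower at NEFA than at control and that of array A is higher, and SLC4A1AP shows the reverse.

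None of the fatty acid transport proteins passed in any reading, and none was above background. SLC27A1 had log2 ratios of -0.19, 0.06, -0.08 and 0.26 on arrays A to D, and the fit gave 0.01 as headed and 0.11 exchanged. SLC27A4 had 0.43, -0.20, 0.45 and -0.05, which gave 0.16 and -0.06. SLC27A3 gave 0.00 and -0.02, and SLC27A6 gave -0.04 and -0.05. SLC27A3 was above background in 2 of 8 channels and the other 3 in none, so a change in these transcripts was not detectable with these probes.

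The SLC27 proteins share their task with other genes of fatty acid uptake and activation. Of 20 such genes listed, 17 were measured, 5 were above background and none passed as headed, under the exchange, or under the exchange with the dye term. Over all genes 1.08% were higher and 3.08% lower under the exchange. The median was -0.05 as headed and 0.03 exchanged. The acyl-CoA synthetase ACSL3 had -0.09 as headed and -0.23 exchanged (unadjusted p = 0.0405 by limma), short of the fold limit. CD36, a fatty acid receptor at the plasma membrane, had -0.14 and -0.11 but passed the background threshold in only 4 of 8 channels. DBI, which binds acyl-CoA, had -0.22 and -0.17. Other partners above background were above 0 as headed, CAV2 at 0.36, CAV1 at 0.26 and FABP5 at 0.12, and had 0.13, 0.19 and -0.17 exchanged. Of the 17 genes, 10 were below 0 and 7 above it as headed, and 8 and 9 exchanged.

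The 6 measured SLC2 genes did not pass as headed or under the exchange, and 2 were above background. GLUT8 (SLC2A8), an intracellular glucose transporter, was above background in all 8 channels with ratios of -0.44, 0.11, -0.09 and -0.25, which gave -0.17 as headed (unadjusted p = 0.174 by limma) and 0.05 exchanged. GLUT4 (SLC2A4), the transporter that insulin moves to the cell surface, had -0.06 and 0.05. SLC2A10 had -0.19 and -0.07, SLC2A12 had 0.12 and -0.20, and SLC2A7 had -0.09 and 0.00. The iodide transporter SLC5A5, placed here by its family, had 0.19 and 0.01. Apart from SLC2A13 these values lay within 0.20 of 0 in both readings.

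SLC2A13, the proton-coupled myo-inositol transporter, differed in sign between pairs of arrays. It read 8.31, 10.28, 9.57 and 11.61 in NEFA, against 9.56, 8.76, 9.74 and 11.84 in the control. The ratios were -1.25 on array A as headed, 1.52 on B, -0.17 on C and -0.23 on D. With array A exchanged, arrays A and B were above 0 and arrays C and D below it, and the fit gave 0.59 (unadjusted p = 0.12 by limma). With the dye term the same value had an adjusted p of 0.0178 by limma, and the mean red over green ratio was -0.79. That term takes up the difference between the pair A and B and the pair C and D, so this p-value leaves that difference out. The zinc transporter SLC30A7, which loads zinc into the Golgi and is named here after its values were seen, had similar values. Its ratios were -1.19, 1.52, -0.33 and -0.18, which gave -0.05 as headed and 0.55 exchanged (unadjusted p = 0.152 by limma, adjusted p = 0.0273 with the dye term). Under the exchange 2 of the 4 arrays had the opposite sign for both genes. Without replicate 2 as headed, both were called lower instead, SLC2A13 at -0.55 and SLC30A7 at -0.57, and under the exchange without replicate 3 SLC30A7 was called higher at 0.84.

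**Figure D4:**
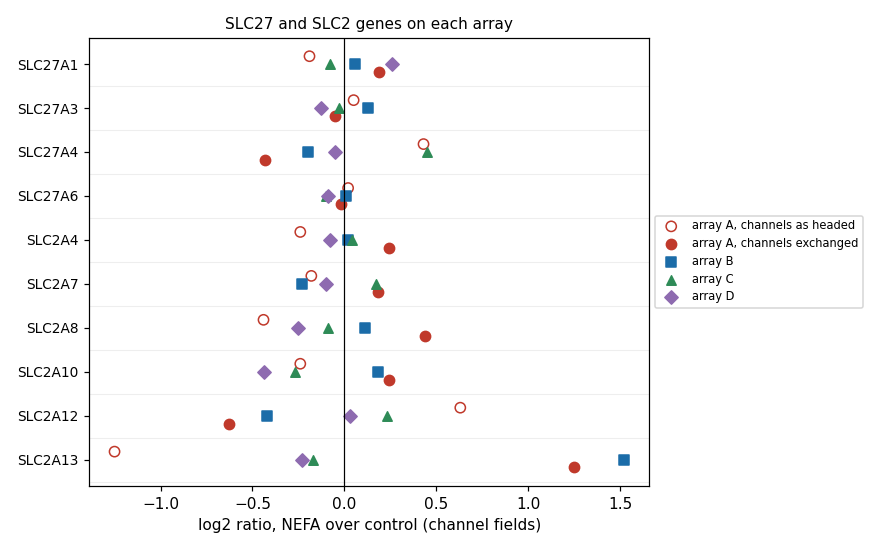
Log2 ratio of NEFA over control (x axis) on each array for the 4 SLC27 and 6 SLC2 genes measured (y axis), with array A as headed (open circles) and exchanged (filled circles). All but SLC2A13 lie within 0.63 of 0 on every array, and SLC2A13 reaches 1.52 on array B.

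Among carriers of inorganic ions, 0 of 36 passed as headed and SLC12A2 passed as higher under the exchange, against 1.08% of all genes. SLC12A2, the sodium-potassium-chloride cotransporter, had ratios of -0.35, 0.61, 0.09 and 0.11. With array A exchanged its log2 ratio was 0.29 (unadjusted p = 0.0406 by limma), and it was above background on 3 arrays in NEFA and on none in the control. The control signal, although not above background, exceeded the lowest normalised signal among probes above background on all 4 arrays. The 1.22-fold higher value in NEFA is therefore the fitted ratio itself and not a lower bound. As headed the ratio was 0.11 (unadjusted p = 0.494). SLC9A9, an endosomal sodium-proton exchanger, named after its values were seen, also passed once the dye term was added, at 0.27 (unadjusted p = 0.0339 by limma), with ratios of -0.05, -0.59, 0.85 and 0.76. Its sign was not the same on all arrays in either reading. The neuronal chloride extruder SLC12A5 had -0.38 as headed and -0.20 exchanged, the sodium-proton exchanger SLC9A4 had -0.18 and -0.11, and SLC24A2 had 0.15 and 0.04.

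The 19 metal ion carriers gave no call as headed or under the exchange, where 1.08% of all genes were higher and 3.08% lower. SLC41A3, a magnesium carrier, had -0.25 as headed (unadjusted p = 0.0383 by limma), short of the fold limit, and -0.01 exchanged, and it was above background in no channel. SLC39A13, a zinc transporter, had 0.05 and 0.24. The zinc transporters SLC30A4 and SLC30A6 had 0.17 and -0.15 as headed and -0.02 and 0.00 exchanged. The 15 monocarboxylate and dicarboxylate carriers ranged between -0.26 and 0.17 as headed and between -0.10 and 0.06 exchanged. The lowest was SLC16A13 at -0.26 (unadjusted p = 0.0729 by limma), which was above background in no channel, and SLC13A3 and SLC13A1 had -0.16 and 0.17 as headed. The 20 carriers of organic ions, bile acids and peptides ranged between -0.14 and 0.23 as headed, with SLC22A18 at 0.23, the vesicular monoamine carrier SLC18A2 at -0.13 and SLC15A5 at -0.14. The thiamine carrier SLC19A2 had -0.05, SLC46A2 had -0.13 and SLC46A3 had 0.02 as headed, and none of these passed in either reading. The choline carrier SLC44A2 was above background in all 8 channels and had -0.77, 0.23, -0.54 and -0.06 (-0.28 as headed and 0.10 exchanged), and its relatives SLC44A4 and SLC44A5 had -0.13 and 0.24 as headed and -0.13 and -0.17 exchanged.

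**Figure D5:**
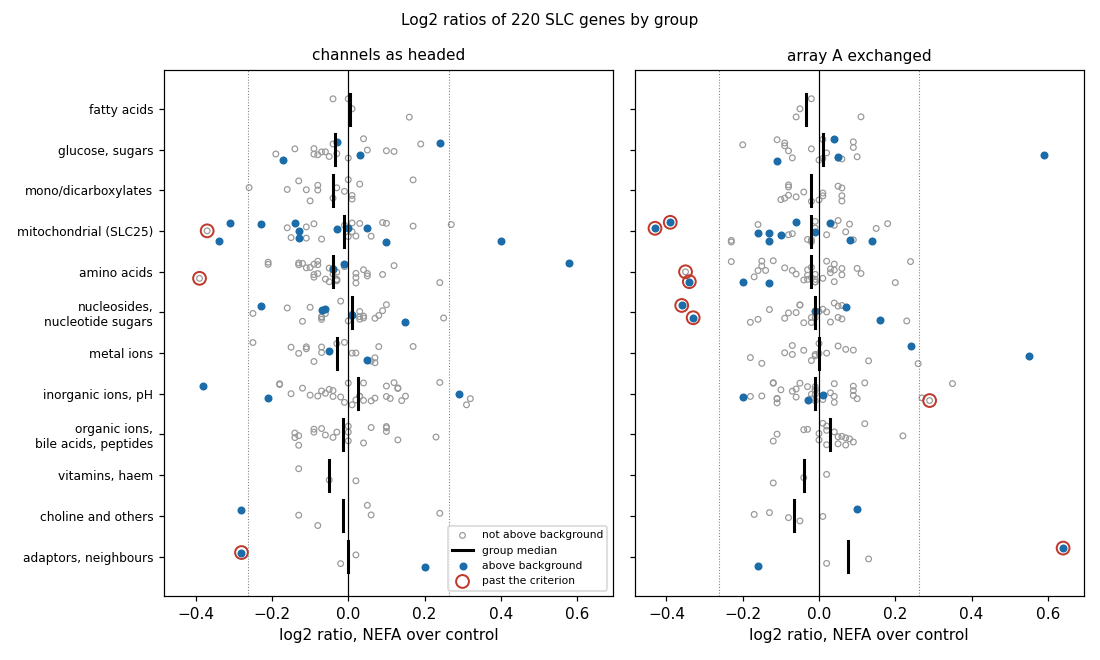
Log2 ratio of each of the 220 SLC genes (x axis) by transporter group (y axis), with channels as headed (left panel) and array A exchanged (right panel). Dotted lines mark the 1.2-fold limit and bars the group medians. The medians lie between -0.05 and 0.02 as headed, and 3 genes are ringed as past the criterion on the left and 8 on the right.

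Of the 4 genes named after a carrier, SLC9A3R1 was lower as headed and SLC4A1AP was higher under the exchange. SLC4A1AP (kanadaptin, named for its binding of an anion exchanger) read 8.15, 9.35, 8.97 and 9.82 in NEFA and 9.01, 8.43, 8.72 and 9.3 in the control. NEFA was higher on arrays B, C and D and lower on array A as headed. Its log2 ratio was 0.20 as headed (unadjusted p = 0.486 by limma), 0.64 exchanged (unadjusted p = 0.00254) and 0.56 without replicate 1 (unadjusted p = 0.0119), and with the dye term its adjusted p was 0.014 by limma. SLC9A3R1, the scaffold that anchors sodium-proton exchangers and other membrane proteins beneath the apical membrane, was above background in all 8 channels. It had -0.25, -0.07, -0.53 and -0.28 (-0.28 as headed, unadjusted p = 0.026 by limma, and -0.16 exchanged, unadjusted p = 0.29). The gene's other probe, which was dimmer, gave -0.10 as headed.

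Other transport genes gave no call as headed or under the exchange, but their lists were short. Over all genes 1.08% were higher and 3.08% lower under the exchange. Of the 17 ABC transporters measured none passed as headed, under the exchange, or under the exchange with the dye term, with medians of -0.02 and 0.03. Of 15 listed partners of transporters (sodium pump subunits, chaperones of monocarboxylate carriers and hexokinases) 7 were measured and none passed as headed or under the exchange. The hexokinase HK1, which traps glucose in the cell, had 0.00 as headed and 0.27 exchanged (unadjusted p = 0.148 by limma). It passed with the dye term (unadjusted p = 0.00588 and adjusted p = 0.151 by limma). Its ratios were -0.54, 0.71, -0.02 and -0.15 on arrays A to D, and its probe passed the background threshold in 4 of 8 channels. With array A exchanged, arrays A and B were above 0 and C and D below it, a difference that the dye term takes up. Of 10 measured genes known to rise with fatty acids, 0 were higher as headed, against 0.281% of all genes, and 4 under the exchange, against 1.08%. These included ANGPTL4 and PLIN2, whose values on array A are given above, with fitted ratios of 1.71 and 0.58 as headed and 3.06 and 1.46 exchanged, so their calls add nothing on the exchange. The others called were the fatty acid oxidation genes ACADVL (0.16 as headed and 0.54 exchanged) and HADHA (0.02 and 0.49). Both were also below 0 on array A as headed, at -0.76 and -0.95, and above 0 on arrays B, C and D. The rest of the list was not called. Exchanged, ACAA2 had 0.10, PDK4 0.02, TXNIP 0.01, ETFDH 0.00, CPT1A -0.02 and CREB3L3 -0.17.

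Of the 35 SLC genes with more than 1 probe, the probes differed in sign for 17 as headed and 11 with array A exchanged. Leaving out 1 array at a time, SLC25A21 was called under each omission as headed, with log2 ratios of -0.32 to -0.40. SLC9A3R1 was lost without replicate 1, 3 or 4, at -0.29, -0.20 and -0.28, and SLC38A7 without replicate 3 or 4, at -0.27 and -0.40. Calls were also gained. Without replicate 2 as headed, 15 of the 220 SLC genes were higher and 15 lower. Over all 43794 probes, a count of probes and not of genes, the calls rose from 169 higher and 173 lower to 3695 and 2591. The gain was thus array-wide and not particular to SLC genes. Among these SLC genes were SLC25A1 at -0.53, SLC25A31 at 0.72, SLC1A5 at 1.01, SLC12A5 at -0.64 and SLC44A2 at -0.45. Were array A exchanged, the remaining arrays as headed would set the red channel against the green on each. With array A exchanged, SLC25A12, SLC25A33, SLC35A3 and SLC4A1AP were called under each omission. SLC12A2, SLC35B3 and SLC36A4 were lost without replicate 1 or 2, at 0.27 and 0.18, -0.28 and -0.32, and -0.23 and -0.31. SLC38A7 was lost without replicate 2, 3 or 4, at -0.34, -0.22 and -0.35. SLC39A13 was gained without replicate 4, at 0.41, and SLC9A9 without replicate 2, at 0.55.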

How the data were processed

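Dual-dye arrays of 4 replicates were analysed. The authors amplified and labelled the RNA, scanned the arrays and deposited mean spot intensity and mean local background intensity per dye, not normalised. Spots flagged as ignored by the extraction software, kept in another column of the deposited files, were set to missing. The authors' table of normalised ratios was not used, since its rows could not be matched to spots. With limma 3.58.1 in R 4.3.3, backgrounds were corrected by normexp (offset 50), arrays normalised by loess and between each other by quantile, and 1 coefficient (NEFA over control, signed by the dye fields) was tested over 43794 probes, two-sided. The authors' methods name background subtraction, loess, quantile and limma, with no version. The number of arrays limits the precision. Green and red medians were 2.79 to 8.87 times the local background, and 23.9% to 42.7% of probes were above background per channel. The procedure was also run on simulated data, with changes placed in bright probes alone and every array oriented by the dye fields. That run does not cover dim probes or the direction of array A.

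In the probe annotation, 13146 probes carry a single gene and 30648 carry none or several, which were not counted apart. Old symbols were updated through RefSeq synonyms (154 symbols, none an SLC gene), because the annotation holds no Entrez IDs. The files used hold no probe coordinates or sequences, so none are given. Genes named were those past the criterion in either reading of array A (at most 15 each), the 3 smallest p as headed in each of the 11 transporter groups, all SLC2 and SLC27 genes, and the 5 with the largest mean over arrays B, C and D among those above background with 1 sign there, 44 in all. Any other gene described was picked once its values had been seen. The members, groups and lists were chosen with earlier results of these data known. The alternatives were array A with its channels exchanged, a dye term, both together, other background corrections and normalisations, probes above background only, no replicate block, another variance prior, the mean of a gene's probes, and each replicate left out in turn. NEFA and control RNA of a replicate share an array, so the pairing comes from the array. The p-values measure the spread between these replicates. With the dye term they measure only the spread within arrays A and B and within arrays C and D. That term takes up the difference between these pairs.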

Additional observations from a re-analysis of the deposited data

Results flagged for a closer look

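Among the log2 ratios of the genes described, 108 groups of 4 arrays were examined with Dixon's gap test, as headed and with array A exchanged, and 2 (1.85%) held a value apart from the rest, where chance alone marks about 1 group in 20. SLC13A1, a sulphate transporter, had -0.25 on array B and 0.30 to 0.32 on arrays A, C and D as headed. SLC24A2, a sodium-calcium-potassium exchanger, had -0.11 on array B, against 0.22 to 0.27 on arrays A, C and D, as headed. SLC13A1 was above background in no channel and SLC24A2 in 2 of 8.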

How the results depend on the processing

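The counts of SLC genes at the criterion, 0 higher and 3 lower as headed, were 2 and 6 with array A exchanged and 5 and 6 with that exchange and the dye term. A dye term alone gave 0 and 6, background subtraction 0 and 4, no background correction 0 and 0, probes above background only 0 and 0 (9495 probes tested), and the trend and robust prior 1 and 4. Without the replicate block, so with the 8 channels as separate samples, they were 0 and 2, and the other settings gave 0 and 2 or 3. Over omissions of 1 replicate, in both readings, the counts ran between 0 and 15 higher and between 1 and 15 lower. Both counts were 15 without replicate 2 as headed, 1 and 5 without replicate 1, and 0 and 1 without replicate 3. Over all 43794 probes the counts were 169 higher and 173 lower as headed, and 3695 and 2591 without replicate 2. They were 711 and 891 with array A exchanged, and 1391 and 1113 with that exchange and the dye term. A dye term alone gave 246 and 219 probes, no background correction 10 and 37, and the trend and robust prior 298 and 262. Background subtraction gave 171 and 159 of 43775 probes, and probes above background only 14 and 21 of 9495. The probe counts were 110 and 92 without the replicate block, 493 and 677 without replicate 1, and 84 and 74 without replicate 3. There were 54 genes followed under each setting (44 by the naming rule and 10 named after their values were seen). Sign changes of genes called as headed or in the setting were as follows. SLC2A13 went to 0.59 and SLC30A7 to 0.55 under the exchange with the dye term, the same values as under the exchange alone, where neither was called. SLC30A7 went to 0.84 under the exchange without replicate 3, and SLC38A7 to 0.03 with no background correction. Called or not, the sign changed for 18 of the 54 when array A was exchanged, and for 26 and 28 under the exchange without replicate 3 and without replicate 4. The causes were not tested. Of the 220 probes, 114 were above background in no channel, so their ratios come from signal near background. Direction rests on the dye fields, which the titles contradict.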
